A study of Homo sapiens with 12 samples.

Results

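To ask what EZH2 inhibition adds to PI3K inhibition, the transcriptomes of C4.2B cells treated with both inhibitors were compared with those of cells treated with the PI3K inhibitor alone. The comparison held 6 of the 12 libraries of the series, 3 of the combination arm (COMBO) and 3 of the PI3K inhibitor arm (GDC), and covered all 23228 gene symbols of the count files. C4.2B is an established human line of castration-resistant prostate cancer. Per the study's methods, it was cultured with 10% full serum. It was switched to 10% charcoal-stripped serum, which is depleted of androgens, only at the start of the final 24 h. GDC cells received vehicle for the 6 days of pretreatment and then 0.5 µM of GDC-0941, which inhibits all PI3K isoforms, for 24 h. COMBO cells received the EZH2 inhibitor GSK126 at 5 µM for those 6 days and then both agents for 24 h, so the arms shared GDC-0941, the serum and the plating of 250000 cells, and differed in the presence of GSK126 throughout. The remaining 6 libraries, vehicle (DMSO) and GSK126 alone (GSK), entered the shared fit and served for 1 comparison at the end. Each arm was a set of 3 plates (A, B and C) of 1 cell line, so p-values measure the spread between plates, which may be technical.

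Polycomb repressive complex 2 (PRC2) methylates histone H3 at lysine 27 through its enzyme EZH2, or the related EZH1. Genes under this mark, many of them regulators of development and lineage, are kept silent. PI3K signals through AKT and mTOR to growth, protein synthesis and metabolism, and AKT keeps FOXO transcription factors out of the nucleus. E2F factors drive the genes of DNA replication and are held back by the RB proteins, while a separate complex times the genes of mitosis.

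Reads in genes numbered 11764649 to 17022613 in the GDC libraries and 12705581 to 21150375 in the COMBO libraries. The arms were separated by the first principal component of log2 CPM (read counts scaled to library size), which held 89.4% of the variance of the 6 libraries. Reads outside annotated genes made up 16.7% to 17.2% of uniquely aligned reads in GDC and 23.0% to 25.3% in COMBO, with COMBO A highest, and their part in the results below was not tested. All 11 prostate luminal markers were detected, with a summed level of 5437 to 5618 CPM in GDC and 6115 to 6552 in COMBO. Markers of other cell types were low in both arms but higher in COMBO for some. The sums were 19.2 to 23.1 against 37.5 to 44.1 CPM for 7 basal markers, 17.6 to 21.0 against 34.2 to 54.3 for 9 stromal markers, 5.03 to 7.34 against 6.55 to 7.10 for 6 endothelial markers and 5.66 to 6.28 against 8.23 to 10.5 for 9 immune markers. Of these lists, 4 basal, 4 stromal, 3 endothelial and 6 immune markers had no count in GDC, and 1, 1, 2 and 3 had none in COMBO.

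Most of the transcriptome differed between the arms. Of 14189 tested genes, 5383 were higher in COMBO (37.9%) and 5395 were lower (38.0%), so 76.0% were called in either direction (adjusted p under 0.05 by the quasi-likelihood test of edgeR). The 3 COMBO libraries lay wholly above or below the 3 GDC libraries for 10922 genes, or 77.0%. The median log2 fold change was 0.018, and the quartiles were -0.43 and 0.57. The 2 tails were unlike: 2032 called genes rose by at least 1 on the log2 scale and 1062 fell by at least 1, while 651 rose and 144 fell by at least 2 and 218 rose and 19 fell by at least 3. When libraries were scaled by their totals, the median of all tested genes moved to 0.19 and 62.8% of calls were higher, against 49.9% under TMM scaling, so changes are given relative to TMM. With so many genes called, a list is described below by how far its counts stand from these background percentages and by its median beside that of all genes, without a test of the list.

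**Figure D1:**
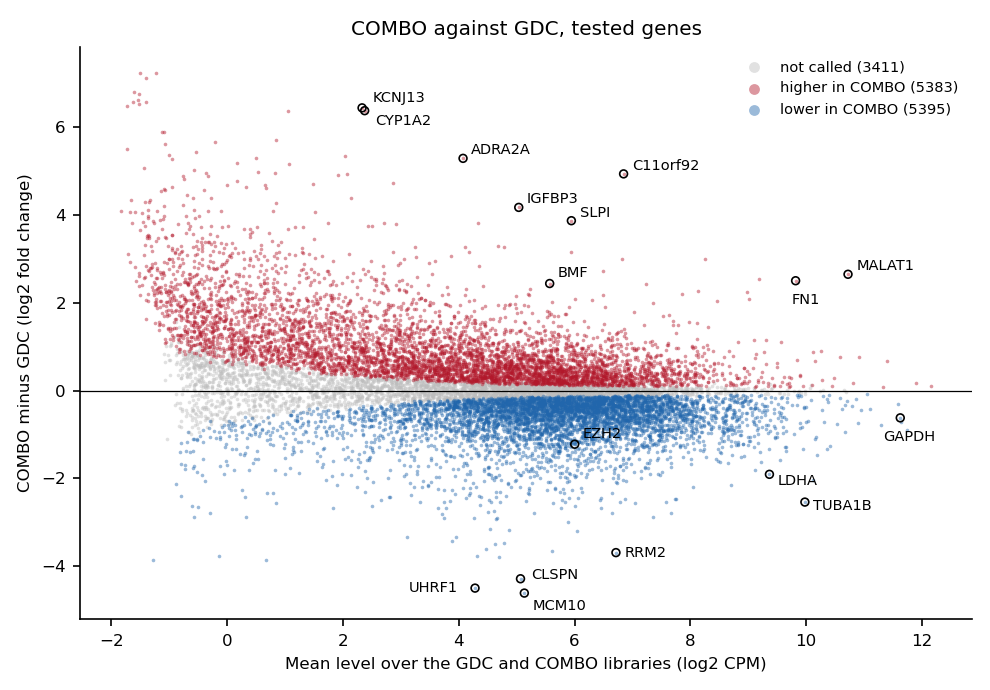
COMBO minus GDC log2 fold change (y axis) against the mean level over all 12 libraries in log2 CPM (x axis) for 14189 tested genes. The axis label names only the GDC and COMBO libraries. Red points are the 5383 genes called higher in COMBO, blue the 5395 called lower and grey those not called, and circled genes are named in the text. Increases of at least 2 on the log2 scale (651) outnumber decreases of that size (144).

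The target of GSK126 was examined first. EZH2 (chromosome 7, 148807257 to 148884321, minus strand, hg38) stood at 89.6, 76.4 and 79.3 CPM in GDC A, B and C and at 34.7, 35.9 and 34.3 in COMBO, with no overlap. EZH2 mRNA was thus 2.33-fold lower in COMBO (log2 fold change -1.22, SE 0.059, adjusted p = 2.43e-13). Enzyme activity was not measured here, and EZH2 has 1 named pseudogene that could share its reads. EZH1, the other catalytic subunit, was higher (0.66, SE 0.066), from 23.1 to 24.8 CPM in GDC to 36.5 to 39.3 in COMBO. Of 12 PRC2 subunits and cofactors, 9 were lower and 3 higher, with a median of -0.75, and all 4 core subunits fell. PHF19, an accessory subunit that helps bring the complex to chromatin, fell by 1.27, and JARID2, an accessory subunit found with PRC2 at developmental genes, rose by 1.07 on the log2 scale.

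The proapoptotic gene BMF, which the study followed as a responder to these drugs, showed a large increase. Its libraries held 23.8, 24.5 and 24.9 CPM in GDC and 133, 127 and 138 in COMBO, a 5.43-fold difference (2.44, SE 0.059, adjusted p = 1.07e-17). In the BCL-2 family as a whole, 4 of 14 tested members were higher and 7 lower. All 3 effectors (BAX, BAK1 and BOK) were lower, with a median of -0.83. PMAIP1, which encodes the BH3-only protein NOXA, was 3.99-fold lower, from 8.44–8.58 CPM to 1.63–2.48. The prosurvival gene BCL2 fell by 0.95. The family median was -0.088 and became 0.084 with library totals, so the family as a whole had no stable direction.

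Genes were ranked if called, without overlap between the arms and with a mean log2 CPM of at least 2 over all 12 libraries. Among these, the largest increases were in genes with a low level under GDC-0941 alone. Some rarer genes had larger fitted changes, which rest on few or no counts in GDC and are not ranked here. KCNJ13 (chromosome 2, 232765802 to 232776565), an inwardly rectifying potassium channel, was at 0.619, 0.678 and 0.268 CPM in GDC and 41.7, 49.5 and 45.6 in COMBO, 87.0-fold higher (6.44, SE 0.19). CYP1A2 (chromosome 15, 74748845 to 74756607), a cytochrome P450 best known from liver, went from 0.972, 0.616 and 0.604 to 56.5, 62.2 and 59.4 CPM, 83.2-fold higher (6.38, SE 0.17). The adjusted p-values of the 2 genes were 1.34e-16 and 2.75e-17. ADRA2A, the alpha-2A adrenergic receptor, stood at 4.07 to 5.63 CPM in GDC and 191 to 205 in COMBO (5.29, SE 0.086). The same order of increase was seen for CA1, a carbonic anhydrase (5.34, SE 0.28), for the sodium-glucose cotransporter SLC5A1 (4.73, SE 0.16) and for the neutral amino acid transporter SLC6A19 (4.38, SE 0.21), both known from intestine and kidney. The libraries of the arms did not overlap in these genes, because the ranking required it. The exons of KCNJ13 overlap those of GIGYF2, so part of its signal is uncertain.

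The promoters of KCNJ13 and CYP1A2, the 2 largest increases above that level, are shown because the repressive mark that EZH2 places acts on promoter chromatin. The sequences are RefSeq's (GRCh38.p14), from 250 bases before to 50 bases after the annotated start, with every CCAAT box in either orientation in capitals. KCNJ13 lies at chr2:232776516-232776815 on the minus strand and CYP1A2 at chr15:74748595-74748894 on the plus strand.

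KCNJ13: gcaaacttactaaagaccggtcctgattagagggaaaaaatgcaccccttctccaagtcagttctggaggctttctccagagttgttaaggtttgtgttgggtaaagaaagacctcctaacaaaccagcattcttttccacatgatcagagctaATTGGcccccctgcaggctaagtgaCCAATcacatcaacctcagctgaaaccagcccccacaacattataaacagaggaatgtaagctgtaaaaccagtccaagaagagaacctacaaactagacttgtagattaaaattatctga
CYP1A2: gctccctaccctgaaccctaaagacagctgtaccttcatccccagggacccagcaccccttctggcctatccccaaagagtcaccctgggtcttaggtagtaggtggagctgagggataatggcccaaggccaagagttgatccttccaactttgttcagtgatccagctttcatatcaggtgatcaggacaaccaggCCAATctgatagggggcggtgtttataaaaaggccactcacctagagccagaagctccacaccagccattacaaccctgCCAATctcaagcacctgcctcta

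Each of these windows held 1 CpG dinucleotide and 2 CCAAT boxes, and neither held an E2F word of those searched. The same search over all promoters of the table found a CCAAT box in 35.7% of them, and in 36.6% of those of tested genes. These matches describe the letters alone.

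Other strong increases included a pair of neighbouring genes and the genes of the secreted proteins IGFBP3 and SLPI. C11orf92 (now COLCA1) went from 30.9, 34.9 and 34.1 to 976, 1052 and 1047 CPM (4.94, SE 0.059). Its neighbour C11orf93 (now POU2AF3), at 0.442, 1.48 and 1.14 CPM in GDC, rose by 4.93, but the 2 genes overlap on opposite strands at chromosome 11, 111290787 to 111308735, and their reads cannot be told apart without strand. IGFBP3, which binds insulin-like growth factors in the extracellular space, stood at 8.66, 7.70 and 12.1 CPM in GDC and 162, 179 and 174 in COMBO (18.1-fold, SE 0.11 on the log2 scale). SLPI, a secreted protease inhibitor, went from 16.2–18.6 CPM to 246–256 (14.6-fold).

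A group of 16 genes had 3 counts or fewer over the 3 GDC libraries together and at least 1 CPM in each COMBO library, and 0 genes showed the reverse. Both limits were set on these same counts, so high ratios, with intervals above 1, follow from the choice and only describe the genes. SEMA3E, a semaphorin guidance cue, had 3 GDC counts and 3.11 to 3.93 CPM in COMBO, a pooled count ratio of 47.6 (exact 95% counting interval 16.0 to 233.1). GJA1, the gap junction protein connexin 43, had a ratio of 48.0 (13.01 to 401.1) and TMEM178 one of 44.5 (12.02 to 371.6). The asparaginase gene ASPG (31.0, 10.3 to 152.3) and AKR1C1, an enzyme of steroid and aldehyde reduction (26.5, 8.80 to 130.5), followed. AKR1C1 has close paralogs, so its reads may be split among them.

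**Figure D2:**
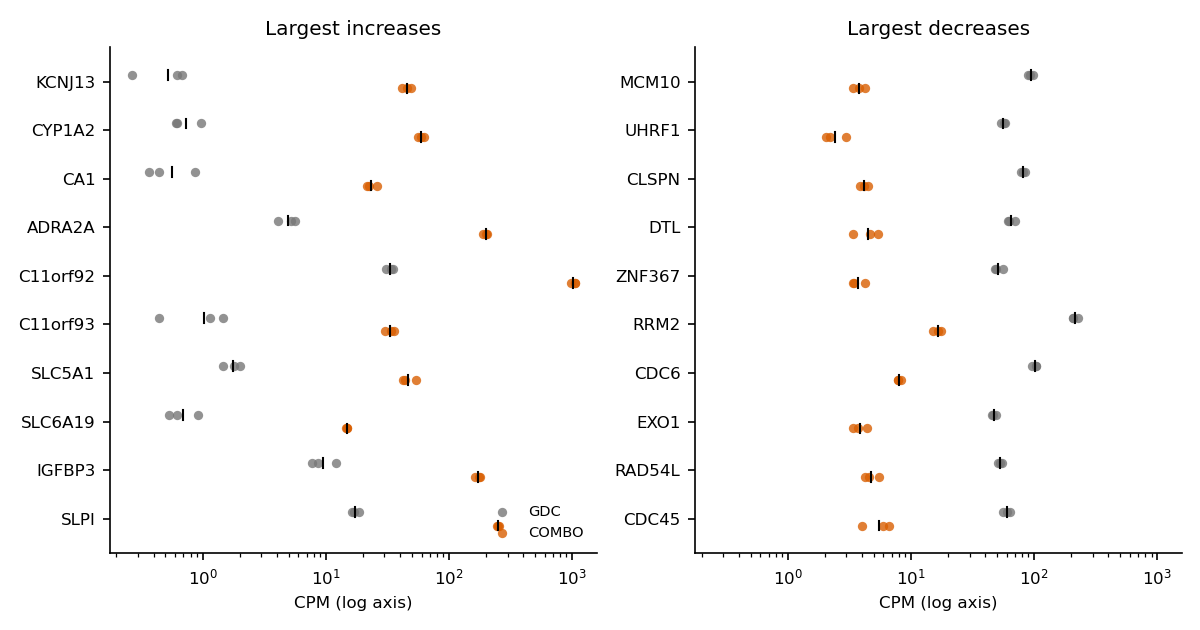
CPM on a log axis (x) in each of the 3 GDC libraries (grey) and 3 COMBO libraries (orange) for the 10 genes with the largest increase and the 10 with the largest decrease (y) among those with a mean log2 CPM of at least 2, with the mean of each arm as a bar. Genes were chosen without overlap between the arms. The points of an arm can spread widely below 1 CPM, as for KCNJ13 in GDC (0.268 to 0.678). Some also spread above it, as for CDC45 in COMBO (4.04 to 6.68) and IGFBP3 in GDC (7.70 to 12.1).

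At the other end, the largest decreases were in DNA replication. MCM10 (chromosome 10, 13161558 to 13211110), which helps to activate the replicative helicase, stood at 93.0, 98.3 and 90.1 CPM in GDC and 4.24, 3.77 and 3.42 in COMBO, a 24.5-fold decrease (-4.61, SE 0.082, adjusted p = 1.28e-19). UHRF1 (chromosome 19, 4903080 to 4962154), which carries DNA methylation through replication, fell 22.6-fold, from 58.2, 56.6 and 54.0 to 2.21, 2.97 and 2.04 CPM. CLSPN, which encodes the checkpoint mediator claspin, went from 78.5–84.2 CPM to 3.89–4.52, 19.5-fold lower. RRM2, the regulated subunit of ribonucleotide reductase, went from 206–228 CPM to 15.2–17.7 and was 12.9-fold lower. CDC6 (-3.65, SE 0.069) and CDC45 (-3.47, SE 0.11) act at origins, EXO1 (-3.60, SE 0.082) and RAD54L (-3.50, SE 0.089) in DNA repair, and DTL (-3.80, SE 0.10) in destroying licensing factors. The zinc finger factor ZNF367 fell by 3.76. All libraries of these 10 genes were lower in COMBO, because the ranking required no overlap. DTL and RAD54L overlap exons of INTS7 and LRRC41, and RRM2 has 3 named pseudogenes, so their counts are less certain. Because these are bulk libraries, fewer cells in S phase and less RNA per cell cannot be told apart.

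Of 59 tested genes of DNA replication, 57 were lower and 0 higher, with a median of -1.93. Helicase activation (11 of 11 lower, median -2.27) and origin licensing (13 of 15 lower, median -2.43) stood lowest. The 17 genes of the clamp, ligation and fork (median -1.77), the 5 that restore chromatin behind the fork (-1.87) and the 11 polymerase and primase genes (-1.40) were lower as well. All 8 E2F factors were lower (median -1.81), among them E2F8, a repressor that itself peaks in S phase (31.3–33.0 to 2.84–3.14 CPM, -3.42), and the activator E2F2 (16.6–19.2 to 1.67–1.80 CPM, -3.35).

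The promoters of MCM10 and UHRF1, the 2 largest of these decreases, are printed for comparison, with CCAAT boxes and E2F words in capitals. MCM10 lies at chr10:13161308-13161607 and UHRF1 at chr19:4909251-4909550, both on the plus strand.

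MCM10: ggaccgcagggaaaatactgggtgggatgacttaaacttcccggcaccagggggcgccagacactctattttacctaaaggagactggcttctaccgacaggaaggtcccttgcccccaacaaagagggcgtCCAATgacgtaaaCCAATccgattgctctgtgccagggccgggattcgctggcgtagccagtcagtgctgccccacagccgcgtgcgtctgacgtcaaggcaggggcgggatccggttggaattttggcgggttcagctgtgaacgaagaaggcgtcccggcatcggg
UHRF1: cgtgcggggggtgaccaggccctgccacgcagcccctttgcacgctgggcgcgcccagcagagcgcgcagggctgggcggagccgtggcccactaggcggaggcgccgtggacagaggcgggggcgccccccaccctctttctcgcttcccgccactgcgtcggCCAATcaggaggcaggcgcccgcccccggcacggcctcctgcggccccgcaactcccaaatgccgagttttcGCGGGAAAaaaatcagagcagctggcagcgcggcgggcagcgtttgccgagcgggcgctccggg

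The MCM10 window held 21 CpG dinucleotides and 2 CCAAT boxes, and the UHRF1 window held 36 CpG dinucleotides, 1 CCAAT box and 1 E2F word. The E2F words searched on both strands were TTTCCCGC, TTTGGCGC, TTTCGCGC and TTTGCCGC. Such a word was present in 45.1% of the 51 promoters with an entry among the 59 replication genes and in 25.6% of the 121 with an entry among the 144 genes that fell by at least 2, against 5.30% of the 10860 promoters of tested genes and 3.33% of all 27305 promoters of the table. A CCAAT box was present in 56.9% and 53.7% of those sets, against 36.6% of tested genes and 35.7% of all. For the genes that rose by at least 2, 447 of 651 had an entry (68.7%), and for mitosis 55 of 69 (79.7%). Both lay under the 80% asked of a set here, so their shares are not given. The tested genes used as background had an entry for 76.5%, also under 80%. Their shares therefore describe only the promoters with an entry. Of 54 genes of ribosome biogenesis, 44 had an entry, and 31.8% of these held the E-box CACGTG, read by MYC and its relatives. The E-box was present in 10.2% of promoters of tested genes and in 7.43% of all. The word TTTGAA was present in 1.96% of replication promoters but in 20.7% of the 121 of genes that fell by at least 2. It was present in 9.47% of those of tested genes and in 15.4% of all. Motifs overlapped each other in 1 of the 51 replication promoters and in 0 of the 44. A match of letters does not show a binding site.

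Genes of mitosis fell without exception. All 69 tested members were lower (median -1.65, from -2.91 to -0.63), against a background of 38.0%. PKMYT1, a kinase that restrains entry into mitosis, went from 31.8–37.0 CPM to 4.30–4.66 (-2.91), although it shares exon sequence with 2 neighbours. CENPK, a kinetochore subunit, went from 24.7–27.6 to 3.42–3.91 CPM (-2.80). By role the medians ran from -1.89 for 15 kinetochore genes to -1.37 for 15 genes of spindle and cytokinesis. TUBA1B, a major alpha tubulin, was among the 5 genes that lost most on the CPM scale, with 1566, 1624 and 1512 CPM in GDC and 268, 277 and 264 in COMBO (5.81-fold lower).

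Homologous recombination and Fanconi genes were lower in 31 of 34 cases (median -1.57), with the 5 BRCA genes and their partners at a median of -2.44. ATM, a kinase that senses double-strand breaks, was higher (55.1–73.2 to 90.1–110 CPM, 0.63), and its exons overlap those of C11orf65. Nucleotide synthesis was lower in 30 of 31 genes (median -1.11). TYMS, which makes thymidylate, fell by 2.45 and overlaps ENOSF1. Among cell cycle brakes and cyclins, CCND2 stood apart as higher, from 0.795, 0.801 and 1.07 CPM to 10.0, 10.8 and 8.59 (3.46, SE 0.19). Of the 7 CDK inhibitors tested, 3 were higher (42.9%) and 2 lower (28.6%), against 37.9% and 38.0% of all tested genes (median 0.21).

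Genes that build the translation machinery were lower nearly throughout. Of 54 genes of ribosome biogenesis, 53 were lower (median -1.01). TCOF1, the treacle protein of the nucleolus, went from 171–181 CPM to 39.8–44.8 (4.22-fold lower), and POLR3G, a subunit of RNA polymerase III, fell by 1.60. The 1 member that rose was POLR1D, a subunit of RNA polymerases I and III (0.63). All 20 cytosolic and 15 of 17 mitochondrial aminoacyl-tRNA synthetases were lower (median of the 37 genes -0.59). IARS, which charges isoleucine, went from 524–547 CPM to 193–205, and MARS2, the mitochondrial methionine enzyme, fell by 1.42. All 74 tested mitochondrial ribosomal proteins were lower (median -0.67), for example MRPS25 (-1.33) and MRPL4 (-1.17), as were all 31 proteasome subunits (median -0.65), for example PSMA7 (-1.01) and PSMA3 (-0.97).

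The cytosolic ribosomal proteins themselves behaved otherwise. Of 74 tested, 32 were lower, 13 higher and 29 not called, with a median of -0.072 that became 0.10 with library totals, where 6 were lower, so this list had no direction that held across scalings. Without GDC A or GDC B, 19 and 20 members were lower. RPS26 (-1.00) and RPS10 (-0.67) fell and RPL13A rose (0.30). These 3 genes have 36, 14 and 26 named pseudogenes, so their counts are uncertain.

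**Figure D3:**
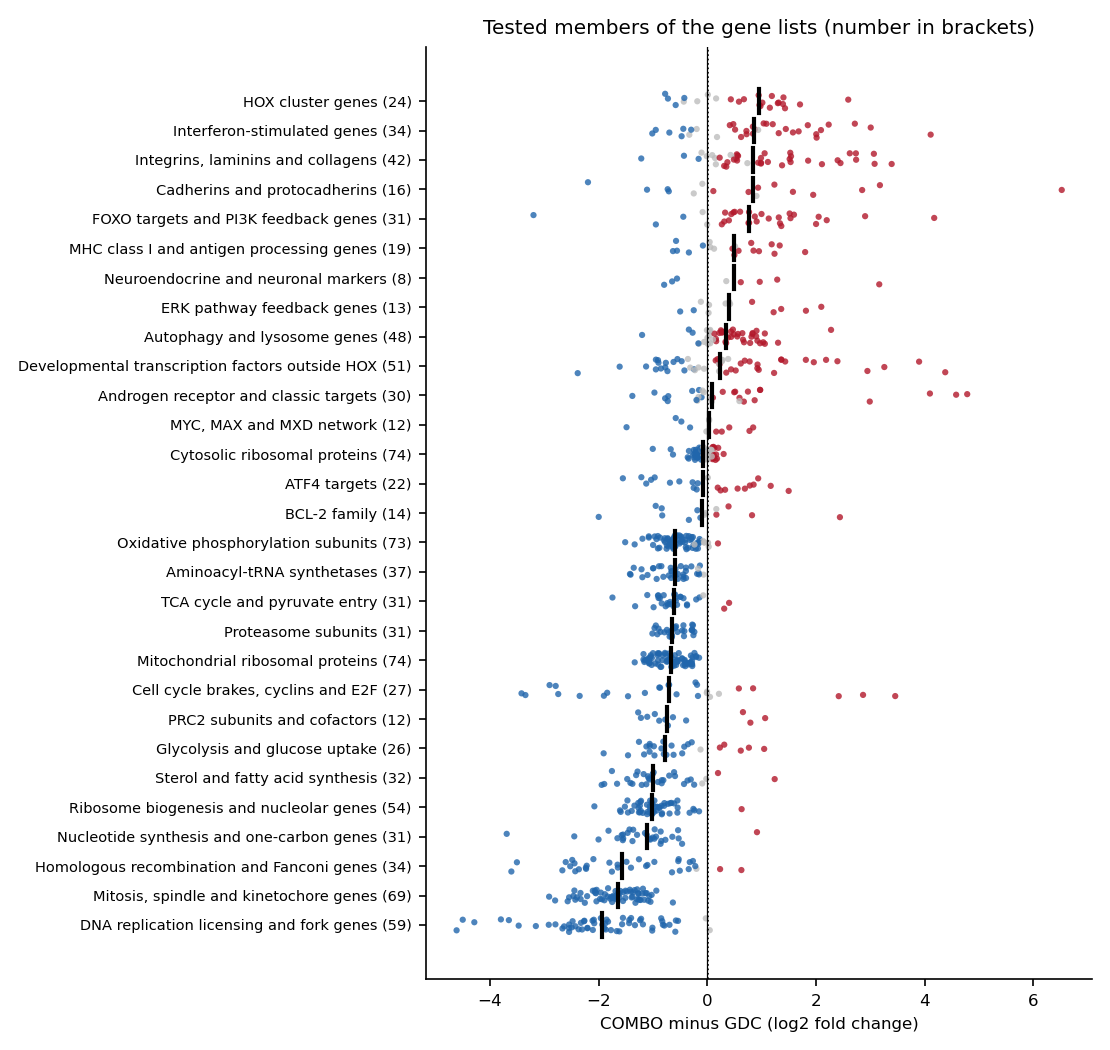
COMBO minus GDC log2 fold change (x axis) of each tested member of 29 gene lists (y axis, number of members in brackets), coloured by call (red higher, blue lower, grey not called), with the list median as a black bar and the median of all tested genes (0.018) as a dotted line. DNA replication and mitosis lie lowest (medians -1.93 and -1.65) and HOX cluster genes highest (0.95).

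Glucose metabolism was lower in COMBO at most steps. Of 26 tested genes of glycolysis and glucose uptake, 20 were lower and 5 higher (median -0.78). HK2, the hexokinase that traps glucose in the cell, stood at 84.9, 81.1 and 89.7 CPM in GDC and 30.2, 30.8 and 32.2 in COMBO (2.75-fold lower, adjusted p = 1.02e-13). LDHA, which makes lactate, went from 946, 952 and 907 to 245, 261 and 242 CPM (3.75-fold lower) and has 6 named pseudogenes. The glucose transporter SLC2A1 fell from 56.1–59.5 CPM to 33.0–33.4 (-0.80), while another transporter of the family, SLC2A12, rose by 1.05. GAPDH, often used as a reference gene, fell by 0.62, with 3319 to 3424 CPM in GDC and 2158 to 2221 in COMBO, and has 65 named pseudogenes.

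The mitochondrial steps followed. Of 31 genes of the TCA cycle and pyruvate entry, 28 were lower and 2 higher (median -0.62). DLAT, a subunit of the pyruvate dehydrogenase complex, went from 300–333 CPM to 88.8–102 (3.35-fold lower), and BRP44 (now MPC2), a subunit of the carrier that brings pyruvate into mitochondria, fell by 1.33. ACO1, the cytosolic aconitase, rose by 0.40. DLAT, BRP44, SLC2A12, TM7SF2, MRPS25 and POLR3G each overlap exons of a neighbouring gene, so their counts are uncertain. Of 73 subunits of oxidative phosphorylation, 66 were lower and 1, COX6C, was higher (0.20), with a median of -0.59. Complex I (36 of 38 lower, median -0.54), complex III (9 of 10, -0.66), complex IV (7 of 10, -0.32) and ATP synthase (14 of 15, -0.67) shared the direction. CYCS, cytochrome c, fell by 1.51 and ATP5G1 (now ATP5MC1) by 1.34, both genes with several pseudogenes.

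Lipid synthesis was lower too. Of 32 genes of sterol and fatty acid synthesis, 28 were lower (median -1.00). EBP, a sterol isomerase, went from 96.3, 95.2 and 90.8 CPM to 25.2, 23.3 and 25.1 (3.84-fold lower), and the desaturase FADS1 fell by 1.90, with exons that overlap FADS2. TM7SF2, a sterol reductase, was higher, from 86.4–88.8 CPM to 204–215 (1.24).

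Developmental genes, the classic targets of PRC2, moved in both directions. Of 39 HOX genes in the files, 24 passed the filter on low counts, and a gene that passed through its COMBO level alone had to differ. In this list 16 were higher, 4 lower and 4 not called, with a median of 0.95. All 8 tested HOXC genes were higher (median 1.35), as were 5 of 6 HOXB genes (median 0.91), whereas 2 of 9 HOXA genes were higher and 3 lower (median -0.18). HOXC4 went from 3.36, 5.05 and 4.36 CPM to 28.3, 24.3 and 26.3 (2.59, SE 0.14) and shares exons with HOXC6. HOXB13, the prostate lineage factor that works with the androgen receptor, was the member that fell most, from 510–531 CPM to 296–309 (-0.78, SE 0.048).

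Of 89 developmental transcription factors outside the HOX clusters, 51 were tested, and 24 were higher (47.1%) and 16 lower (31.4%), with a median of 0.23. These shares were not far from the 37.9% and 38.0% of all tested genes. FOXC1 had 4 counts over the GDC libraries and 1.86 to 2.33 CPM in COMBO, and DLX5 had 2 counts, for a pooled ratio of 17.1 (4.45 to 145.4). DLX1 went the other way, from 17.4–21.1 CPM to 3.28–4.12 (5.22-fold lower). The 2 RUNX and the 2 NR2F genes tested were lower (medians -1.04 and -0.76) and the 3 TFAP2 genes were higher (0.52). Members that did not pass the filter were not compared, and a gene that passed through its COMBO level alone had to differ, so these counts do not describe the whole families.

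Adhesion and matrix genes were mostly higher. Of 42 tested integrins, laminins and collagens, 31 were higher and 3 lower (median 0.84), with 15 of 18 collagens higher (median 1.53). COL4A4 went from 0.469–0.678 CPM to 4.35–5.61 (3.08, SE 0.31) and COL27A1 from 0.0884–0.201 to 1.06–2.55. The laminin LAMA1 was lower (-1.21). Of 16 tested cadherins and protocadherins, 9 were higher and 4 lower. CDH10 had no count in GDC and was at least 9.79-fold higher in COMBO against 3 counts over the GDC arm, CDH19 rose by 3.18, and PCDH20 fell from 10.4–12.7 CPM to 2.26–2.66 (-2.19). The cadherin median of 0.83 was 0.076 when a mean of 1 CPM was required, where 5 were higher. In both lists, a gene that passed the filter on low counts through its COMBO level alone had to differ. The counts of higher members therefore partly follow from the filter and do not describe the whole families. Beside these matrix genes, the summed stromal markers were 17.6 to 21.0 CPM in GDC and 34.2 to 54.3 in COMBO. Their part was not tested.

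Genes of PI3K feedback and targets of FOXO factors were mostly higher with GSK126. Of 31 tested, 26 were higher and 3 lower (median 0.77), including all 3 FOXO factors and 14 of 15 FOXO targets (median 1.13). IGFBP3, described above, and IGFBP5, from 4.33, 5.91 and 5.03 CPM to 41.0, 37.5 and 37.6 (2.90, SE 0.099), rose most. IGF1, the ligand that feeds the pathway, fell from 218, 235 and 230 CPM to 23.8, 26.8 and 23.4 (9.17-fold lower). Of 13 ERK feedback genes, 5 were higher (38.5%) and 2 lower (15.4%), against 37.9% and 38.0% of all tested genes. The share of increases was thus that of the background. With library totals 8 members were higher. The phosphatases DUSP5 (2.10) and DUSP6 (1.82) were highest and PHLDA1 was lower (-0.50).

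The androgen receptor and its classic targets were split. Of 30 tested, 14 were higher (46.7%) and 9 lower (30%), against 37.9% and 38.0% of all tested genes. The median of 0.093 was -0.0017 in DESeq2. FKBP5, a chaperone gene strongly induced by androgen, fell from 187, 197 and 194 CPM to 72.2, 77.2 and 72.9 (2.60-fold lower). AKR1C3, an enzyme that makes and breaks down androgens, had 7 counts in GDC and 3.86 to 5.34 CPM in COMBO (4.78, SE 0.40), with close paralogs. In the MYC network 5 genes were higher (41.7%) and 4 lower (33.3%) of 12, near the 37.9% and 38.0% of all tested genes. MYC fell from 437, 431 and 437 CPM to 294, 286 and 293 (1.49-fold lower, -0.58, SE 0.051). This fall began from a raised level, as MYC was 0.78 higher in GDC than in DMSO on the log2 scale. Its mean was 254 CPM in DMSO and 291 in COMBO, so MYC mRNA in COMBO was not below vehicle. MYCL1 rose by 0.78, MLXIPL by 0.84, and MXD3, an antagonist of MYC, fell by 1.49, although it overlaps neighbouring exons. HIF1A was 1.23-fold higher (0.30, SE 0.049), from 193–207 CPM to 232–257.

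Interferon-stimulated genes were higher in 24 of 34 cases and lower in 6 (median 0.86). A gene that passed the filter on low counts through its COMBO level alone had to differ, so these counts partly follow from the filter. The 2 largest increases were of genes almost unseen in GDC. XAF1, a proapoptotic gene, had 2 GDC counts and a pooled ratio of 19.8 (5.21 to 168.4), and the guanylate binding protein GBP3 went from 0.0884–0.370 CPM to 1.46–2.03. IFIH1, the sensor of double-stranded RNA called MDA5, fell by 1.01 on the log2 scale, from 23.8, 26.2 and 27.5 CPM in GDC (2.02-fold lower). Of 19 genes of MHC class I and antigen processing, 10 were higher and 5 lower (median 0.50). HLA-E rose 2.52-fold, from 17.8–21.7 CPM to 49.2–50.8, PSMB9 of the immunoproteasome rose 3.48-fold and overlaps PSMB8, and the peptide transporter subunit TAP2 fell by 0.63. The summed immune markers were 5.66 to 6.28 CPM in GDC and 8.23 to 10.5 in COMBO, and 6 of the 9 had no count in GDC.

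Autophagy and lysosome genes were higher in 33 of 48 cases and lower in 4 (median 0.34). GABARAPL1, which builds autophagosomes, went from 31.5, 32.1 and 29.6 CPM to 75.9, 79.2 and 74.4 (2.47-fold), and MAP1LC3A of the same family rose by 2.28 from under 1 CPM. GLA, a lysosomal galactosidase, fell by 1.20 and overlaps RPL36A. Of 20 neuroendocrine and neuronal markers, 8 were tested, and 4 were higher (50%) and 3 lower (37.5%), with a median of 0.48. The shares over all tested genes were 37.9% and 38.0%. A marker that passed the filter on low counts through its COMBO level alone had to differ. The synaptic vesicle gene SYT1 rose from 0.123–0.530 CPM to 2.69–3.42 and NCAM1 rose by 1.29. POU3F2 fell by 0.79 with overlapping libraries (0.801 to 1.68 CPM in GDC, 0.583 to 0.976 in COMBO), and its call was lost in 7 alternatives.

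ATF4 targets, the genes of amino acid shortage and stress, were divided between 10 higher (45.5%) and 11 lower (50%) of 22. The shares over all tested genes were 37.9% and 38.0%. The list median was -0.082, which became 0.091 with library totals, where 7 were lower. PSAT1 and PSPH, which make serine, fell by 1.55 and 1.21, PSAT1 from 284–301 CPM to 97.4–105. PPP1R15A, which restores translation after stress, went from 3.96–5.04 CPM in GDC to a level 2.82-fold higher in COMBO, and ATF3, a stress-induced factor, from 13.3, 14.8 and 13.3 to 20.9, 19.8 and 20.7 CPM (0.56, SE 0.086).

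On the CPM scale, where long and abundant transcripts weigh most, the gains were led by MALAT1, a nuclear noncoding RNA. It took 903, 729 and 855 CPM in GDC and 6548, 4105 and 4962 in COMBO (6.28-fold, SE 0.15 on the log2 scale). COMBO A, the library with the largest share of reads outside genes, was the highest, and without it the log2 fold change was 2.48, against 2.65 with all libraries. FN1, the matrix protein fibronectin, went from 445, 460 and 513 to 2659, 2522 and 2867 CPM (5.67-fold). AHNAK, a very large scaffold protein, was higher in each library but uneven (244 to 406 and 1259 to 1779 CPM). FTH1, ferritin heavy chain, rose 1.61-fold and has 25 named pseudogenes. The losses were led by the chaperones HSP90AA1 (1.87-fold lower), HSPA8 (1.64-fold) and HSP90AB1 (1.72-fold), with TUBA1B and GAPDH as described above. HSPA8 has 17 named pseudogenes and HSP90AA1 overlaps WDR20.

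To see whether GSK126 did the same in cells without the PI3K inhibitor, the change from GDC to COMBO was set beside the change from DMSO to GSK, which uses no common library. In the latter, 5676 genes were higher (40.0%) and 5072 lower (35.7%). Both comparisons called 9262 genes, and 9079 of these (98.0%) moved the same way. Across the 14189 tested genes, which are not independent replicates, Pearson's r of the 2 log2 fold changes was 0.913. The difference between the 2 changes was then tested gene by gene as the interaction, which is the GDC to COMBO change less the DMSO to GSK change. At adjusted p under 0.05 it was called above 0 for 690 genes (4.86%) and below 0 for 2344 (16.5%). Counts of interactions above or below 0, here and in what follows, are of called genes alone. These counts depended on the processing. DESeq2 size factors gave 963 above and 1852 below, the filter on low counts left out gave 1638 and 1319, and leaving out 1 library gave 732 to 1178 above and 1279 to 2231 below. The count below fell by more than 1.5 times without DMSO A (1325), DMSO C (1282), GDC A (1313), GDC B (1279), GDC C (1410), GSK A (1294), GSK B (1282) or COMBO A (1409), and the count above rose as much without DMSO B (1178) or COMBO A (1092).

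**Figure D4:**
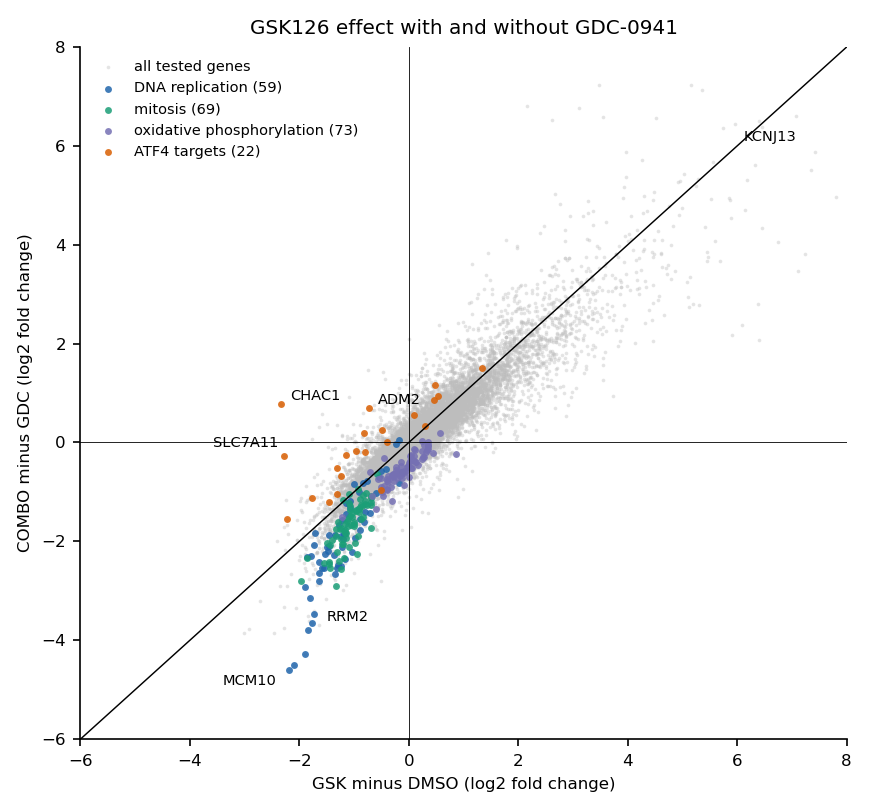
COMBO minus GDC log2 fold change (y axis) against GSK minus DMSO log2 fold change (x axis) for all tested genes (grey) and 4 gene lists (coloured), with the line of equal change in black. Most of the 59 replication and 69 mitosis genes lie below the line at the lower left (medians -1.93 and -1.65 against -1.25 and -1.09), and most of the 22 ATF4 targets lie above it.

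For DNA replication, GSK126 lowered the median by 1.25 in vehicle-treated cells and by 1.93 in GDC-0941-treated cells. The interaction was called below 0 for 44 of 59 genes (39 to 44 under the alternatives tried). For mitosis the medians were -1.09 and -1.65, with 61 of 69 genes called below 0 (52 to 63). MCM10 was at 142, 136 and 134 CPM in DMSO and 31.5, 27.5 and 31.2 in GSK, a decrease of 2.19 on the log2 scale, against a change of -4.61 in the presence of GDC-0941 (interaction -2.42, adjusted p = 3.41e-11). UHRF1 (-2.41), CLSPN (-2.40), RRM2 (-2.04) and DTL (-1.96) had the next interactions below 0. Oxidative phosphorylation differed more in kind, with 17 subunits higher and 37 lower from DMSO to GSK (median -0.12) against 1 and 66 from GDC to COMBO. Of its 73 interactions, 69 were called below 0 (56 to 69). Sterol and fatty acid synthesis had medians of -0.46 and -1.00, with 19 of 32 called below 0 (16 to 21). For the cytosolic ribosomal proteins the count of 50 of 74 called below 0 ranged from 9 to 47 under the alternatives. For mitochondrial ribosomal proteins 22 of 74 ranged from 4 to 21, so these 2 counts were not steady. Ribosome biogenesis had nearly equal medians, -1.05 and -1.01.

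ATF4 targets went against this trend. Their median was -0.82 from DMSO to GSK and -0.082 from GDC to COMBO. Of 22 interactions, 19 were called above 0 and 1 below 0 (18 to 19 and 1 under the alternatives). CHAC1, which degrades glutathione, fell from 10.0, 11.1 and 11.6 CPM in DMSO to 1.54, 2.85 and 2.03 in GSK, but stood at 2.56, 3.39 and 2.28 in GDC and rose to 4.06, 5.46 and 4.66 in COMBO (interaction 3.11, adjusted p = 7.10e-08). SLC7A11, the cystine transporter, fell from 188–238 to 40.2–46.4 CPM without GDC-0941 and from 113–124 to 92.5–101 CPM with it, and the latter decrease was not called with library totals (-0.097, adjusted p = 0.204). ADM2, a peptide hormone, moved in opposite directions (52.5, 53.2 and 50.3 to 35.7, 30.0 and 29.2 CPM, and 43.9, 46.0 and 42.7 to 65.4, 69.2 and 80.7). It overlaps SBF1. GDF15, a stress-induced cytokine, and RDH10, a retinol dehydrogenase, were higher in COMBO than in any other arm (interactions 1.26 and 1.32). In all, 38 genes were higher in COMBO than in GDC yet lower in GSK than in DMSO with an interaction called, and 145 showed the reverse. Among these FAM18B2 (interaction 1.38) was the third named with an increase, and the kinesin KIF21B (-1.74), the tubulin TUBA3C (-1.60) and the pattern receptor CLEC7A (-1.30) led the reverse group. TUBA3C lost its call for COMBO against GDC in 7 alternatives. These were DESeq2 (adjusted p = 0.150), library totals, no filter and the fits without GDC B, GDC C, COMBO B or COMBO C.

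**Figure D5:**
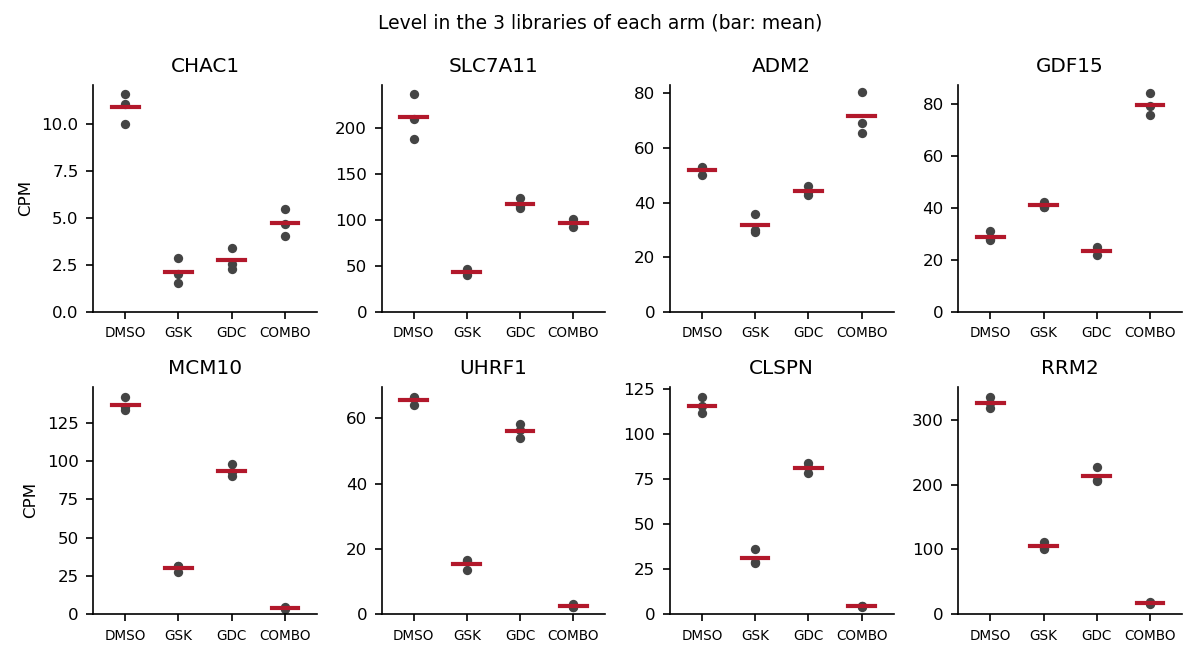
CPM (y axis, from 0) in the 3 libraries of each of the 4 arms (x axis), with the mean as a red bar, for 4 genes with an interaction above 0 (top) and 4 below 0 (bottom). CHAC1 is lower in GSK than in DMSO but higher in COMBO than in GDC, and MCM10 is lowest in COMBO at 3.42 to 4.24 CPM.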

How the data were processed

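PolyA RNA of C4.2B cells was sequenced in 12 libraries. Per the labels and the study's methods, STAR placed the reads on hg38 and HTSeq counted them over genes. Tool versions, gene annotation and strand setting are not given in the sources used here, so overlapping and antisense genes are uncertain. The deposited files hold raw read counts for each gene symbol. A deposited table of values normalized with DESeq2 was not used here. The 5 summary lines of each file did not enter library sizes or the fit.

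Counts were fitted in R 4.3.3 with edgeR 4.0.16 (glmQLFit and glmQLFTest), with TMM scaling, filterByExpr (14189 genes) and 1 coefficient per arm over all 12 libraries. Tests were two-sided with Benjamini-Hochberg adjustment at 0.05. SE is the log2 fold change divided by the root of its F statistic. CPM uses the scaled library sizes. A count of 0 allows up to 3 counts, and intervals cover counting error only. Replicates differed by more than sampling noise (chi-square per degree of freedom 2.07 to 6.18), so each library was 1 replicate. The labels letter the libraries A, B and C, and deviations from the arm means of same-lettered GDC and COMBO libraries correlated at 0.230, 0.356 and 0.141, so the letters were taken as pairs in an alternative fit with a replicate block. The scripts were tested on simulated data.

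Named genes were, first, 8 that comprised the drug target EZH2, its paralog EZH1 and genes the study discusses. To these came the 10 largest increases and decreases (called, mean log2 CPM of at least 2 over all 12 libraries, no overlap). Others were 5 each way by CPM difference, up to 5 nearly uncounted in 1 arm and 5 each way by interaction. The rest were 3 each way with opposite changes, and per list the 2 largest changes in its main direction and 1 in the other. Some genes that met these rules are not reported here. Gene lists (29, and 5 of markers) were written by hand. Members, lists and rules were chosen with earlier results of these data known. Positions are from GENCODE 44 on hg38, which placed 21466 symbols (92.4%), and promoters from RefSeq (GRCh38.p14), with an entry for 10860 tested genes (76.5%). Alternatives were DESeq2 1.42.0, its size factors in edgeR, library totals, 2 other filters on low counts, the compared arms only, the replicate block, a log2 fold change of at least 1 and fits without each library.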

Additional observations from a re-analysis of the deposited data

Results flagged for a closer look

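The interaction passed the threshold for 59 of the 122 named genes, that is, GSK126 changed them by a different amount with GDC-0941 than without it. Some named genes were chosen because their interaction was called, so part of this count was fixed by the choice. Over all tested genes it was called above 0 for 4.86% and below 0 for 16.5%. Values are the interaction on the log2 scale, and a value below 0 means that the change from GDC to COMBO lay below the change from DMSO to GSK.

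Genes of DNA replication, repair and their regulation lay below 0: MCM10 (-2.42), UHRF1 (-2.41), CLSPN (-2.40), RRM2 (-2.04), DTL (-1.96), CDC6 (-1.87), EXO1 (-1.78), CDC45 (-1.75), E2F8 (-1.68), RAD54L (-1.66), ZNF367 (-1.48), E2F2 (-1.28) and TYMS (-1.28). The same held for genes of mitosis, the cytoskeleton and chromatin: KIF21B (-1.74), TUBA3C (-1.60), PKMYT1 (-1.57), TUBA1B (-1.19), CENPK (-0.83) and EZH2 (-0.33). Genes of metabolism and protein turnover below 0 were FADS1 (-0.77), ATP5G1 (-0.73), SLC2A12 (-0.69), EBP (-0.68), RPL13A (-0.67), BRP44 (-0.52), PSMA7 (-0.51), LDHA (-0.47), MRPS25 (-0.46), GAPDH (-0.43), COX6C (-0.37), TM7SF2 (-0.34), DLAT (-0.31), PSMA3 (-0.31), CYCS (-0.30), HSP90AA1 (-0.27), ACO1 (-0.26), HSP90AB1 (-0.17) and IARS (-0.16). Others below 0 were CLEC7A (-1.30), LAMA1 (-1.19), MXD3 (-0.92), C11orf92 (-0.91), GLA (-0.52), HOXB13 (-0.49), IGF1 (-0.47), IFIH1 (-0.42), SLPI (-0.40), FKBP5 (-0.31) and BMF (-0.29). Genes above 0 were CHAC1 (3.11), SLC7A11 (2.02), ADM2 (1.41), FAM18B2 (1.38), RDH10 (1.32), GDF15 (1.26), MALAT1 (0.96), PSAT1 (0.67), ATF3 (0.47) and PSPH (0.24).

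Of these, IARS lost the call in all 18 alternatives, IFIH1 in 16, CYCS in 13, HSP90AB1 in 12, BMF in 11, ACO1 in 10, LAMA1 in 9, PSMA3 in 7, DLAT in 6, EZH2 in 5, and SLPI, FKBP5, IGF1, GLA and TUBA3C in 1 each, each with the sign kept.

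Reads outside annotated genes, which entered no comparison, made up 24.0% ± 1.20 of uniquely aligned reads in COMBO, against 16.7% to 17.2% in the GDC libraries, 20.6% ± 0.342 in GSK and 15.4% ± 0.523 in DMSO (mean ± SD, n = 3). The COMBO libraries lay above all others.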

How the results depend on the processing

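Over 13 alternatives, 1556 of 1572 recomputed COMBO minus GDC changes of the 122 named genes kept their direction and call, 16 kept only the direction (TUBA3C, POU3F2, SLC7A11 and RPS10) and 0 reversed. The counts of genes called were 5360 higher and 5364 lower with the replicate block, which changed no named COMBO against GDC call. In the interaction, that block ended the call of IARS (adjusted p = 0.0562) and brought FN1 (0.0347) and PHF19 (0.0380) past the threshold, with 684 genes above and 2235 below. With a log2 fold change of at least 1, 2032 were higher and 1062 lower. With library totals, 6 cytosolic ribosomal proteins and 7 ATF4 targets were lower and 8 ERK feedback genes higher, and scaling alone moved these. With a mean of at least 1 CPM, 5 cadherins and 2 ERK feedback genes were higher and 16 ribosomal proteins lower. With that filter 1151 interactions were called above 0, with fewer genes tested. Without a filter, 1638 interactions were called above and 1319 below 0. DESeq2 called 3 MYC network genes higher. Without 1 library, called interactions numbered 732 to 1178 above and 1279 to 2231 below 0. Such fits called 19 to 30 ribosomal proteins lower and 3 to 5 MYC network genes higher (3 without COMBO C). Apart from those named, the cause was not tested. The median interaction was -0.063 as reported and -0.064 to 0.035 otherwise. Of the 29 list counts, 367 of 377 recomputed values were within 1.5 times. Depth limits genes under about 1 CPM, where a ratio rests on few counts.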

Other observations

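Genes with the longest spans lay higher. Among 13509 tested genes with a placed span, the median COMBO minus GDC log2 fold change was 0.20 in the longest of 4 equal bins by span (from 80905 bases) and -0.043, -0.080 and -0.072 in the other bins from the shortest upward. The corresponding medians from DMSO to GSK were 0.20 in the longest and 0.060, -0.017 and -0.045 in the others. These are values across genes, with no test, and reads outside genes moved in the same direction between the arms (16.7% to 17.2% in GDC and 23.0% to 25.3% in COMBO).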
